A study of Mus musculus with 6 samples.

Results

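The integrated stress response and the unfolded protein response were followed through 36 mouse genes in cultured ovarian cancer cells given the chemokine CCL6. Members were all probe sets whose platform gene symbol was on this list. They covered 35 of the 36 genes on 36 of 22206 probe sets, because Ddit3 had 2 and Pdia4 is not analysed here. By role they fell into 6 groups, of transcription factors, stress sensors with a phosphatase subunit, amino acid supply genes, other targets of ATF4 and CHOP, endoplasmic reticulum (ER) chaperones and ER degradation genes. The cells were ID8, a mouse ovarian cancer line, grown in dishes and deprived of serum for 24 h in both groups. Cells were then left unstimulated or given 200 ng/mL of recombinant CCL6 for 6 h, with 3 biological replicates per group and 1 Clariom S array per replicate. The model is a single line grown without the macrophages that are known to secrete CCL6, and it was read at 1 dose and 1 time. The arrays were made to look for pathways that CCL6, a ligand of the receptor CCR1, alters in migrating cancer cells.

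Both responses slow protein synthesis and refit the cell when amino acids run short or proteins misfold in the ER. In the integrated stress response, kinases such as PERK and GCN2 phosphorylate the translation factor eIF2α, which lowers general translation but raises that of ATF4, and ATF4 then turns on genes for amino acid uptake and synthesis. In the unfolded protein response, PERK, IRE1 and ATF6 sense the ER lumen, and the factors XBP1 and ATF6 turn on chaperones and degradation genes. Much of this control lies in translation, splicing and cleavage, which an array of transcript levels does not read. In bulk RNA, a difference in all cells and a larger one in some of them cannot be told apart.

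Values are log2 expression values on the deposited scale, and every difference is CCL6 minus unstimulated with its standard error (SE). A probe set counted as above background when its mean in either group exceeded 4.85, the 95th percentile of chemosensory receptor genes, and 34 member probe sets (33 genes) did. Of 10 epithelial and mesothelial markers 9 lay above this level, the exception being Epcam, while 7 of 8 leukocyte markers did not, the exception being Cd14 with group means of 7.58 and 7.45. Array medians lay between 5.43 and 5.49. The arrays did not part by treatment along their main axis of variation. The first principal component, with 50.8% of the variance, put unstimulated replicates 1 and 2 with CCL6 replicate 3 (scores of -34.1, -29.7 and -40.5) and unstimulated replicate 3 with CCL6 replicates 1 and 2 (46.1, 23.4 and 34.9). Each array numbered 3 thus lay with replicates 1 and 2 of the other group. Groups are used as labelled. Whether these 2 arrays carry the right labels was not tested, and every difference printed here rests on that. Proliferation genes split the arrays in the same way, and their values are given beside the results they move with.

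No member passed the test, so directions below describe group means on these 6 arrays only. All 9 amino acid supply genes and all 6 other ATF4 and CHOP targets had a higher mean after CCL6, with median log2 differences of 0.21 and 0.70. Without CCL6 replicate 1 this held for 5 of 9 and 4 of 6, and without unstimulated replicate 2 for 8 of 9 and 4 of 6. Of the 6, Stc2 was not above background, and with all arrays the other 5 had a median of 0.77. Of 7 ER chaperones 5 had a lower mean, with a median of -0.20, and the transcription factors had a median of 0.23 with 6 of 8 higher. The median of the factors rested on the arrays numbered 3, being 0.04 (4 of 8 higher) without unstimulated replicate 3, 0.03 (4 of 8) without CCL6 replicate 3 and -0.04 (3 of 8) without both. Over all members the median was 0.16, and over all 22206 probe sets it was -0.01. In limma, after Benjamini-Hochberg adjustment across the table, 0 members and 0% of all probe sets had an adjusted p under 0.05, and the smallest adjusted p of the whole table was 0.999. At an unadjusted p under 0.05, 4 member probe sets were higher (Slc7a11, Trib3, Chac1 and Vldlr) and 0 were lower, against 1.28% higher (284 probe sets) and 1.81% lower (401) over the whole table. That count was 2 without CCL6 replicate 2, when Slc7a11 and Trib3 remained, and 7 without both arrays numbered 3. In that last setting the groups lay at opposite ends of the first component, so treatment and component cannot be told apart. The share over all probe sets is not given for these settings. The methods' t-test put 3 members under an unadjusted 0.05 and 0 after adjustment, against 812 and 1 over all probe sets.

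Counts of direction and overlap were read against the same shares over the table. Of 36 member probe sets 26 were higher after CCL6 (25 of the 34 above background), against 48.5% of all probe sets and 51.4% of those above background. The count was 19 of 36 without CCL6 replicate 1, 22 without unstimulated replicate 2 or without both arrays numbered 3, and 21 with the 2 array sets of the first component as a block. For these settings the share over all probe sets is not given. Groups did not overlap in 5 members that were higher (Psat1, Slc7a11, Trib3, Chac1 and Herpud1), against 3.77% of all probe sets. They did not overlap in 2 that were lower (Calr and Pdia6), against 4.41%. In the other 29 member probe sets the 2 groups overlapped. With 3 arrays per group an exact permutation test of a single gene cannot give a p below 0.1. The list was drawn up with earlier results of these arrays known, so its direction is not independent evidence.

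**Figure D1:**
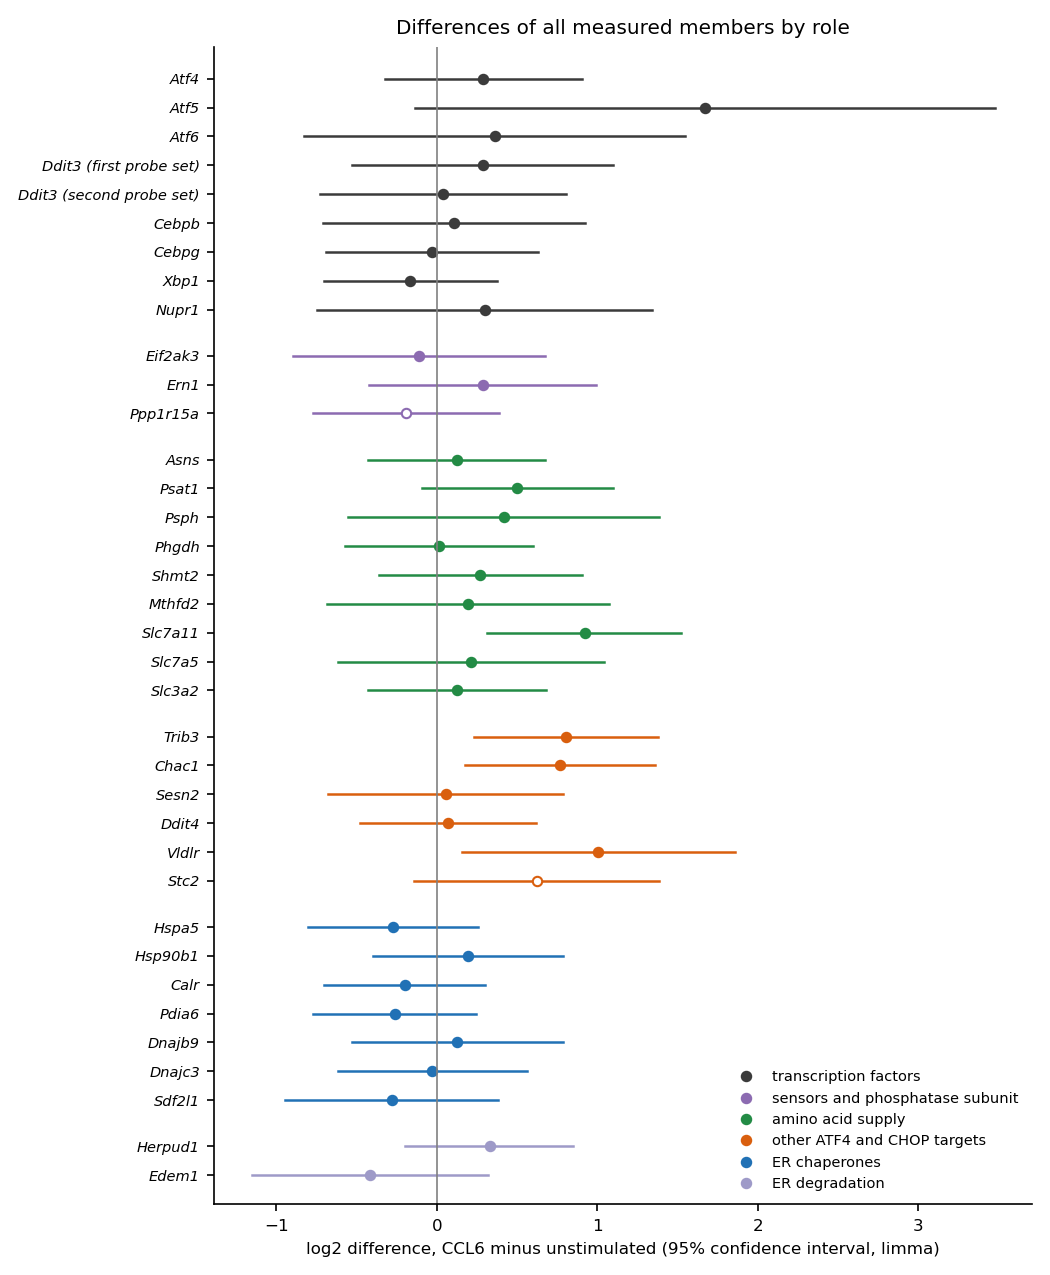
Log2 difference (CCL6 minus unstimulated, horizontal axis) of each of the 36 member probe sets, ordered and coloured by role, with 95% confidence intervals from limma that are not adjusted for the number of probe sets. Open circles mark the 2 genes not above background, and the intervals of Slc7a11, Trib3, Chac1 and Vldlr lie wholly above 0.

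Among the transcription factors, Atf4, the factor at the centre of the integrated stress response, read 15.54, 15.79 and 15.60 on unstimulated replicates 1 to 3 and 15.78, 16.39 and 15.63 on CCL6 replicates 1 to 3. CCL6 replicate 2 stood above the rest, and the other CCL6 arrays lay within the unstimulated range, so the groups overlapped. Its transcript was 0.29 higher on the log2 scale (SE 0.27), 1.22-fold (limma, unadjusted p = 0.311, adjusted p = 0.999). Without CCL6 replicate 2 the difference was 0.06. Ddit3, which encodes CHOP, the factor that links prolonged stress to cell death, had 2 probe sets. The first gave 11.22, 10.81 and 10.25 without CCL6 and 11.39, 10.42 and 11.33 with it. Values of both groups were interleaved, with the lowest on unstimulated replicate 3, and the difference was 0.29 (SE 0.36, unadjusted p = 0.442). The second gave 8.03, 8.88 and 8.75 without CCL6 and 8.24, 8.40 and 9.15 with it, again interleaved, for a difference of 0.04 (SE 0.34, unadjusted p = 0.911).

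Xbp1, the factor that IRE1 activates by splicing its RNA, was nearly level across 5 arrays. It read 15.00, 14.88 and 14.97 on the unstimulated arrays and 15.01, 14.83 and 14.51 after CCL6. Only CCL6 replicate 3 stood below the others, and the difference was -0.17 (SE 0.24, unadjusted p = 0.502). A probe set of this kind gives 1 value per gene and does not separate spliced from unspliced Xbp1. Atf6, whose protein is cut free of the ER membrane under stress, had means of 13.16 and 13.52 and a difference of 0.36 (SE 0.52). Cebpb and Cebpg, which encode partners of ATF4 on DNA, differed by 0.11 and -0.03. Nupr1, a small stress-induced chromatin protein gene, differed by 0.30 (SE 0.46).

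Atf5, a relative of Atf4 that is also translated under stress, had the largest difference of the members and is singled out here after its values were seen. It read 5.95, 6.43 and 9.05 on the unstimulated arrays and 9.15, 9.61 and 7.68 after CCL6. Unstimulated replicate 3 lay among the CCL6 arrays and CCL6 replicate 3 lay below it, so the groups overlapped. The difference was 1.67 (SE 0.79), 3.19-fold, at an unadjusted p of 0.0657 (adjusted p = 0.999). The 3 arrays on which it was lowest were those with negative scores on the first component. Without both arrays numbered 3 it was 3.19 (adjusted p = 0.102), with unstimulated and CCL6 arrays then lying at opposite ends of that component, and with the 2 array sets as a block it was 0.91 (adjusted p = 0.795). Leaving out any 1 array gave between 1.07 (without unstimulated replicate 1) and 2.63 (without unstimulated replicate 3). The part of the array sets in this difference was not tested beyond these values.

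Of the sensors and the phosphatase subunit, 0 of 3 had an unadjusted p under 0.05. Eif2ak3, which encodes PERK, had means of 13.02 and 12.90, a difference of -0.11 (SE 0.35). Ern1, which encodes IRE1, had means of 11.01 and 11.30, a difference of 0.29 (SE 0.31). Ppp1r15a, whose protein GADD34 brings a phosphatase to eIF2α and so ends the response, was not above background in either group, with means of 3.25 and 3.06. Its level therefore could not be compared.

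Promoters were searched for the elements through which ATF4 and the ER factors act, in RefSeq windows of GRCm38.p6 that run from 250 bases before to 50 bases after each gene start. Of the 36 listed members 34 had a window, Pdia4 among them although its expression is not analysed here. The core of the C/EBP-ATF response element, the site that ATF4 binds with C/EBP partners, was spelled TGATGNAA on either strand. It was found in 3.97% of 32851 windows and in 7 of 34 members (20.6%), namely Slc7a11, Trib3, Chac1, Vldlr, Asns, Herpud1 and Nupr1. The first share counts windows and the second counts genes with a match in any window. Many members were listed as ATF4 targets, so a larger share among them is no test. The first 4 are the members with an unadjusted p under 0.05, and their windows are shown to let the element be seen beside the values. Those of Asns (difference 0.12) and Nupr1 (0.30) are not shown. Each window shown runs 5′ to 3′ along the gene, with matches to the core in capitals.
Slc7a11 promoter, chr3:50443564-50443863, minus strand: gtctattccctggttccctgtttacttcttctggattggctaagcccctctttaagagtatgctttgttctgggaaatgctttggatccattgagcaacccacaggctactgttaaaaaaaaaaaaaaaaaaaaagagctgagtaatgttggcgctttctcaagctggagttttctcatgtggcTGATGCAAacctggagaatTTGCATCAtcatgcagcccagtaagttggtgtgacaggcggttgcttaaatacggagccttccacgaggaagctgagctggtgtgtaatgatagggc
Trib3 promoter, chr2:152344011-152344310, minus strand: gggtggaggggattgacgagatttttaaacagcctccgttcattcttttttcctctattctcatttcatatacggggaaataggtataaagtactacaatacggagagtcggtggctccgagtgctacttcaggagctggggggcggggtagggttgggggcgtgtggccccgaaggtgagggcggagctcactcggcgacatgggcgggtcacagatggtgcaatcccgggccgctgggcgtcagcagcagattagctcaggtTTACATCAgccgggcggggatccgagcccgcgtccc
Chac1 promoter, chr2:119350992-119351291, plus strand: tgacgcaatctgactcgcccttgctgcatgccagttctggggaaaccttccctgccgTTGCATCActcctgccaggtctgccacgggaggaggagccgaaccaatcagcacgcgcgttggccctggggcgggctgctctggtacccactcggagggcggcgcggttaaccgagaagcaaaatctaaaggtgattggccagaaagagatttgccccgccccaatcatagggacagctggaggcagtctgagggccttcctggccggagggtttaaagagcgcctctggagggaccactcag
Vldlr promoter, chr19:27216770-27217069, plus strand: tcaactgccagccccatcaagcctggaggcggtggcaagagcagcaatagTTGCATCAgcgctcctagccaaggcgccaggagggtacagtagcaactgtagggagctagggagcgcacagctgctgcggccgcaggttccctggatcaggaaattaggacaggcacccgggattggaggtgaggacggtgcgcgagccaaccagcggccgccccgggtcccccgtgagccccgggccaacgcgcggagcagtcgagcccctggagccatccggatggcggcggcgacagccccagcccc
Slc7a11 held 2 matches on opposite strands, at bases -66 to -59 and -47 to -40, where 1 is the first transcribed base and -1 the base before it. In Chac1 the match lay at bases -193 to -186, in Vldlr at -200 to -193, and in Trib3 within the transcribed stretch, at bases 15 to 22. Vldlr has a further window upstream with no match. A match describes letters and is not a measured binding site.

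Slc7a11 encodes the cystine carrier of the xCT exchanger, which brings in cystine for glutathione. It read 9.64, 10.03 and 10.22 on the unstimulated arrays and 11.18, 10.81 and 10.65 after CCL6. Every CCL6 array lay above every unstimulated array, with the narrowest gap between unstimulated and CCL6 replicates 3. The difference was 0.92 (SE 0.27), 1.89-fold, at an unadjusted p of 0.00752 (adjusted p = 0.999). It stayed between 0.76 and 1.05 when any 1 array was left out.

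Differences were smaller for Psat1 and Asns. Psat1 encodes the aminotransferase of serine synthesis and read 15.76, 16.02 and 15.43 unstimulated and 16.05, 16.52 and 16.15 after CCL6. The groups were apart, but by only the gap between 16.02 and 16.05, and the difference was 0.50 (SE 0.26, 95% confidence interval -0.09 to 1.10, unadjusted p = 0.0885). Asns encodes asparagine synthetase, a classical ATF4 target, and read 16.43, 16.55 and 16.72 unstimulated and 16.98, 16.60 and 16.49 after CCL6. Only CCL6 replicate 1 lay above the unstimulated range, and the difference was 0.12 (SE 0.24, unadjusted p = 0.624). Asns held a core match at bases -23 to -16.

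The other 6 amino acid genes were higher by small amounts with overlapping groups. Psph, the phosphatase that ends serine synthesis, differed by 0.42 (SE 0.43) and Phgdh, the dehydrogenase that begins it, by 0.02 (SE 0.26). Shmt2 and Mthfd2, mitochondrial enzymes that pass carbon from serine to folate, differed by 0.27 (SE 0.28) and 0.20 (SE 0.39). Slc7a5, the large neutral amino acid carrier, and Slc3a2, the heavy chain it shares with the cystine carrier, differed by 0.21 (SE 0.36) and 0.13 (SE 0.24). So Slc7a11 was the 1 gene of 9 at an unadjusted p under 0.05.

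Trib3, Chac1 and Vldlr lie downstream of ATF4 and CHOP. Trib3 encodes a pseudokinase that feeds back on ATF4. It read 10.56, 10.76 and 10.11 on the unstimulated arrays and 11.30, 11.35 and 11.20 after CCL6. The CCL6 arrays lay close together and all above the unstimulated arrays. The difference was 0.80 (SE 0.25), 1.75-fold, at an unadjusted p of 0.0115 (adjusted p = 0.999), and 0.62 to 0.95 with any 1 array left out. Chac1 encodes an enzyme that breaks down glutathione. It read 10.42, 10.65 and 10.82 unstimulated and 11.46, 11.67 and 11.05 after CCL6, again without overlap, and CCL6 replicate 3 came nearest to the unstimulated arrays. Its difference was 0.77 (SE 0.26), 1.70-fold, at an unadjusted p of 0.0167 (adjusted p = 0.999), and 0.63 to 0.94 with any 1 array left out.

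Vldlr encodes a lipoprotein receptor that ATF4 raises under ER stress. It read 7.10, 6.64 and 6.04 on the unstimulated arrays and 7.98, 7.87 and 6.94 after CCL6. CCL6 replicate 3 lay below unstimulated replicate 1, so the groups overlapped at that point. The difference was 1.01 (SE 0.37), 2.01-fold, at an unadjusted p of 0.0255 (adjusted p = 0.999), and 0.73 to 1.33 with any 1 array left out. Sesn2 and Ddit4, stress-induced brakes on mTORC1, differed by 0.06 (SE 0.32) and 0.07 (SE 0.24). Stc2, a secreted stress glycoprotein gene, was not above background in either group, with means of 3.76 and 4.38.

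**Figure D2:**
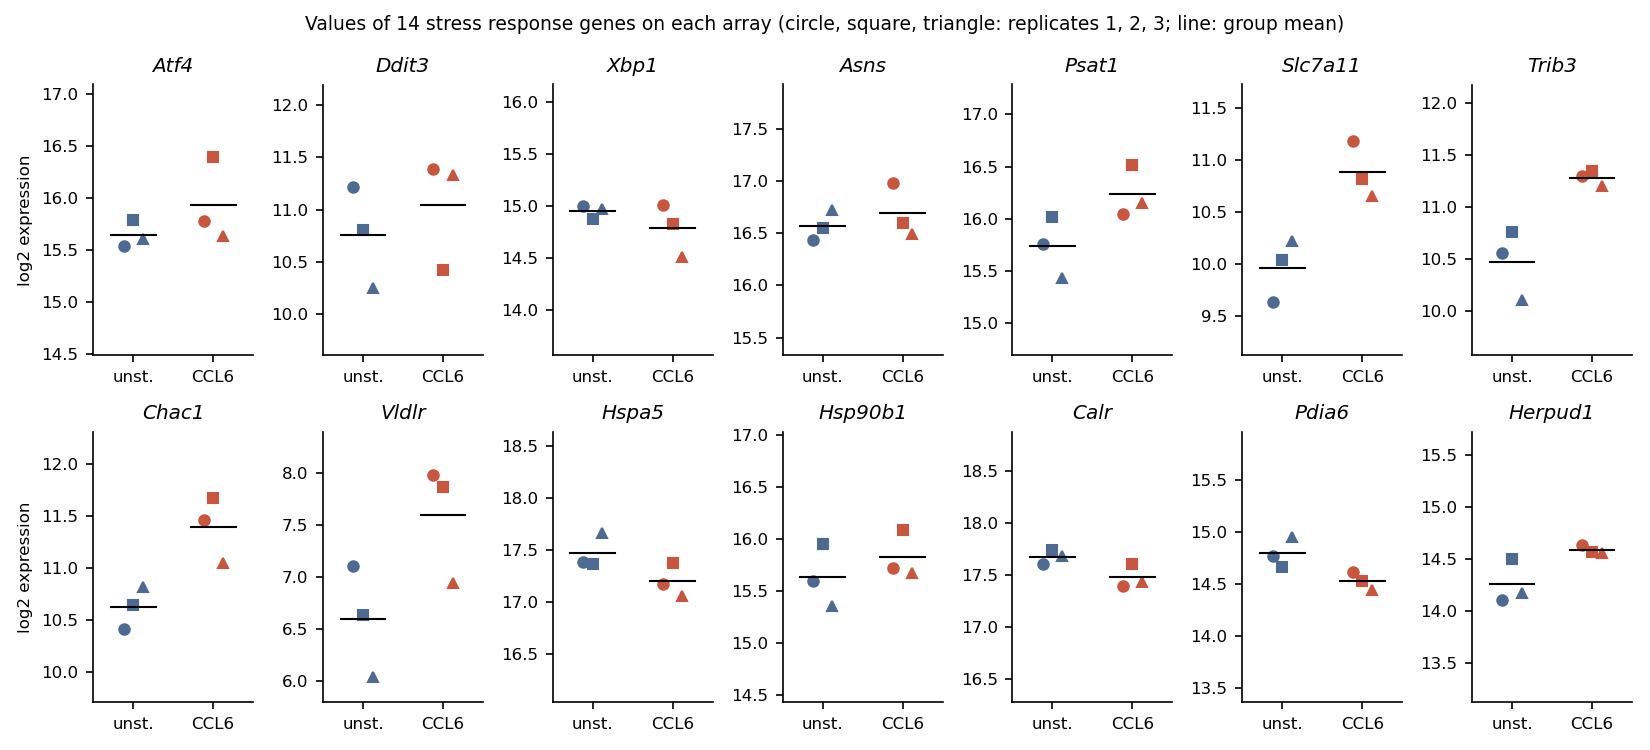
Log2 expression of 14 member genes on each array, unstimulated (blue) and CCL6 (red), with circles, squares and triangles for replicates 1, 2 and 3 and a line at each group mean. All panels span the same log2 range, and Ddit3 is shown by its first probe set only. Slc7a11, Trib3, Chac1, Psat1 and Herpud1 separate upward after CCL6, Calr and Pdia6 separate downward, and the other 7 overlap.

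The chaperones were searched for ER stress element I, which is CCAAT, then 9 bases of any kind, then CCACG, and is bound by ATF6 with the factor NF-Y. It occurred in 0.119% of all windows and in 5 of 34 members, all of them chaperones (Hspa5, Calr, Pdia6, Hsp90b1 and Dnajc3). Here too windows stand beside genes, and the chaperones were listed as genes of this response, so the shares are no test. ER stress element II, a shorter form, occurred in 0.0365% of windows and in Herpud1 alone among members. The unfolded protein response element, TGACGTGG, occurred in 0.676% of windows and in 0 members. Windows of 2 chaperones with different strands of element I are shown, and that of Herpud1, which held element II together with a C/EBP-ATF core. Capitals mark the whole match, spacer included.
Hspa5 promoter, chr2:34771840-34772139, plus strand: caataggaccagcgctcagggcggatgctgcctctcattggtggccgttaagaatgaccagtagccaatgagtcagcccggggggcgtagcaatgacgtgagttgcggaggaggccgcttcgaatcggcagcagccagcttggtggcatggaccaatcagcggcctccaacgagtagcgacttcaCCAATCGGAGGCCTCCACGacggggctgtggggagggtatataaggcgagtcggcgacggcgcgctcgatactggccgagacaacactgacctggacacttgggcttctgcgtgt
Calr promoter, chr8:84846882-84847181, minus strand: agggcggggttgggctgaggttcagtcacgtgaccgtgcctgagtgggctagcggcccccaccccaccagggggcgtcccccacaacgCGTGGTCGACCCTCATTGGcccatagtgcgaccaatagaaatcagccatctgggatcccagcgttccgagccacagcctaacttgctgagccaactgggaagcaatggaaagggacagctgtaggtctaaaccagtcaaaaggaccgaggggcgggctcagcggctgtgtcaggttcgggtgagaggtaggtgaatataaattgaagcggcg
Herpud1 promoter, chr8:94386179-94386478, plus strand: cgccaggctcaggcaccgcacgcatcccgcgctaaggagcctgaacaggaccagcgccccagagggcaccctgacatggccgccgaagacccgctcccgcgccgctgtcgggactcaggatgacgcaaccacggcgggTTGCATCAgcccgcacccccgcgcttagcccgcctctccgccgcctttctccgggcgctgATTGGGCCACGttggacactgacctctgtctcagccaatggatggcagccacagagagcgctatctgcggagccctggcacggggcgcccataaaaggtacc
The matches lay at bases -65 to -47 in Hspa5 and -162 to -144 in Calr. In Herpud1 the core lay at bases -112 to -105 and element II at bases -52 to -42.

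Hspa5 encodes BiP, the chief chaperone of the ER lumen and the usual readout of the unfolded protein response. It read 17.38, 17.36 and 17.66 on the unstimulated arrays and 17.17, 17.37 and 17.05 after CCL6. CCL6 replicate 2 lay within the unstimulated range and the other CCL6 arrays lay below them. The difference was -0.27 (SE 0.23, 95% confidence interval -0.80 to 0.26), at an unadjusted p of 0.271 (adjusted p = 0.999).

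Calr, the chaperone calreticulin, read 17.61, 17.74 and 17.68 unstimulated and 17.40, 17.60 and 17.43 after CCL6. All CCL6 values lay below all unstimulated values, though CCL6 replicate 2 only just, and the difference was -0.20 (SE 0.22, unadjusted p = 0.389). Pdia6, which forms and breaks disulfide bonds, read 14.77, 14.67 and 14.95 unstimulated and 14.62, 14.54 and 14.45 after CCL6. It too was lower on every CCL6 array, with a difference of -0.26 (SE 0.22, unadjusted p = 0.27). Hsp90b1, the ER form of HSP90, read 15.60, 15.95 and 15.35 unstimulated and 15.72, 16.09 and 15.67 after CCL6. Here the groups overlapped and the difference was 0.20 (SE 0.26, unadjusted p = 0.472). Of the BiP co-chaperone genes, Dnajb9 differed by 0.13 (SE 0.29), Dnajc3 by -0.03 (SE 0.26) and Sdf2l1 by -0.28 (SE 0.29).

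The ER degradation genes went opposite ways. Herpud1, whose membrane protein helps to send misfolded proteins to the proteasome, read 14.10, 14.50 and 14.17 unstimulated and 14.63, 14.57 and 14.56 after CCL6. The CCL6 values were tight and lay just above the highest unstimulated one, with a difference of 0.33 (SE 0.23, unadjusted p = 0.188, adjusted p = 0.999). Edem1, which picks misfolded glycoproteins for degradation, differed by -0.42 (SE 0.32).

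Read by array, each group was averaged as the mean deviation of its genes from their own mean over the 6 arrays. The other ATF4 and CHOP targets stood at -0.19, -0.22 and -0.43 on unstimulated replicates 1 to 3 and at 0.52, 0.31 and 0.00 on CCL6 replicates 1 to 3. All CCL6 arrays lay above all unstimulated arrays, least so replicate 3. Without Stc2, which was not above background, CCL6 replicate 3 stood at -0.065 and unstimulated replicate 1 at -0.085, so that the groups were barely apart. Amino acid supply stood at -0.30, -0.12 and -0.05 without CCL6 and at 0.33, 0.27 and -0.13 with it. CCL6 replicate 3 fell among the unstimulated arrays for these genes. Chaperones stood at 0.10, 0.09 and -0.03 without CCL6 and at 0.00, 0.05 and -0.20 with it, overlapping, with the lowest value on CCL6 replicate 3.

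Proliferation genes, 17 of 17 above background, moved with the array sets. Their mean deviation was -0.72, -0.45 and 0.77 on the unstimulated arrays and 0.48, 0.85 and -0.92 after CCL6, and their mean log2 level was 11.6 on the lowest array and 13.3 on the highest. CCL6 replicate 3 was the lowest CCL6 array for these genes and for amino acid supply alike. With the 2 array sets as a block, the amino acid median was 0.05 and 6 of 9 genes were higher, whereas the other targets had a median of 0.66 with 5 of 6 higher and the chaperones one of -0.21. Slc7a11 was then 0.80, Trib3 0.88, Chac1 0.63 and Vldlr 0.98. Leaving out CCL6 replicate 1 brought the amino acid median to 0.005, and leaving out CCL6 replicate 3 brought it to 0.46.

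**Figure D3:**
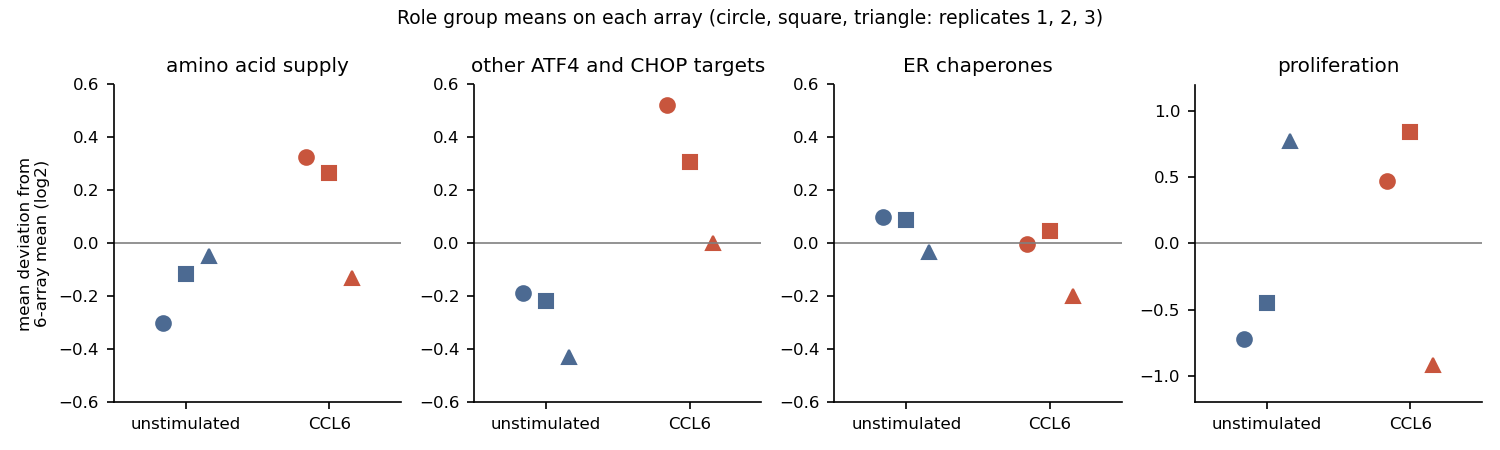
Mean deviation of each gene from its own 6-array mean (log2, vertical axis), averaged over the genes of a group on each array, with circles, squares and triangles for replicates 1, 2 and 3. The proliferation panel has a wider axis. The other ATF4 and CHOP targets separate by treatment (barely so without Stc2), amino acid supply overlaps at CCL6 replicate 3, and for proliferation both arrays numbered 3 stand away from the others of their group.

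**Figure D4:**
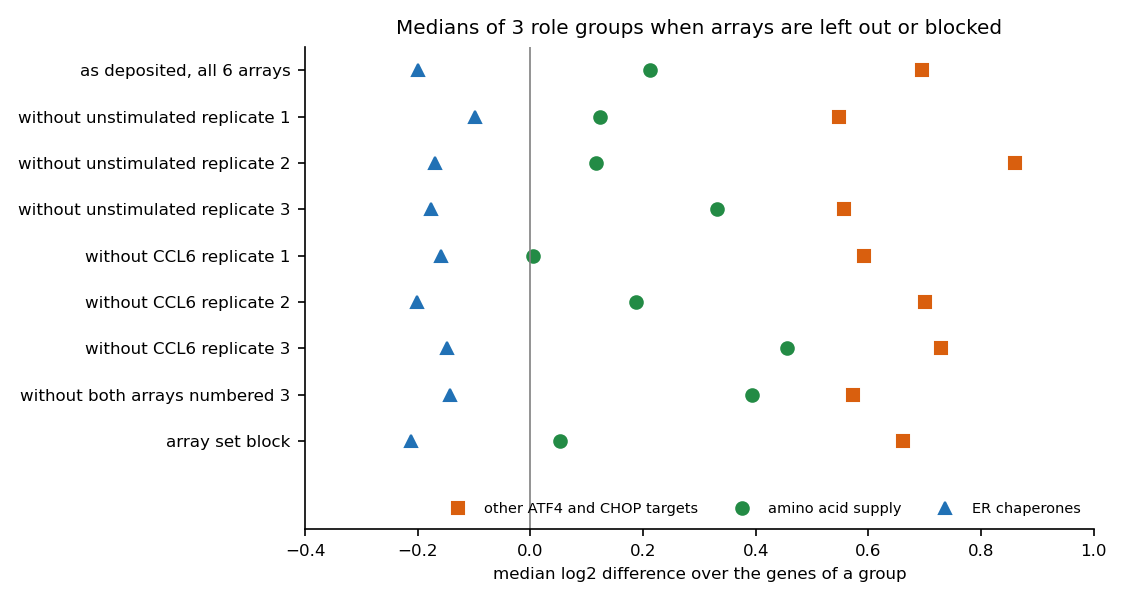
Median log2 difference (horizontal axis) of the amino acid supply genes, the other ATF4 and CHOP targets and the ER chaperones with all arrays, with each array left out, without both arrays numbered 3 and with the array sets as a block. The medians of the other targets stay above 0.5 and those of the chaperones below 0 in every setting shown, while the amino acid median runs from 0.005 to 0.46.

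Set by promoter element, the 7 members with a C/EBP-ATF core were all higher after CCL6 with all arrays, with a median difference of 0.77. Nupr1 turned to -0.212 once CCL6 replicate 3 was dropped, and to -0.007 once unstimulated replicate 3 was. Dropping these 2 arrays together took Nupr1 to -0.518, and dropping CCL6 replicate 1 took Asns to -0.021. Chac1, Herpud1, Slc7a11, Trib3 and Vldlr stayed higher with any 1 array left out. The 15 amino acid supply genes and other ATF4 and CHOP targets were all higher with all arrays, also those whose windows held no core. They include Slc7a5, which has no window, and Stc2, which was not above background. Among genes that are not members the core went with a share near that of all genes. Of 249 other genes above background with the core 53.8% were higher, with a median of 0.04, and of all 9147 named genes above background with a window 51.3% were higher. The 5 members with element I had a median of -0.20 with 1 higher, and 15 other genes with it had a median of 0.23. Of 19 members above background with none of the elements 14 were higher, with a median of 0.13.

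**Figure D5:**
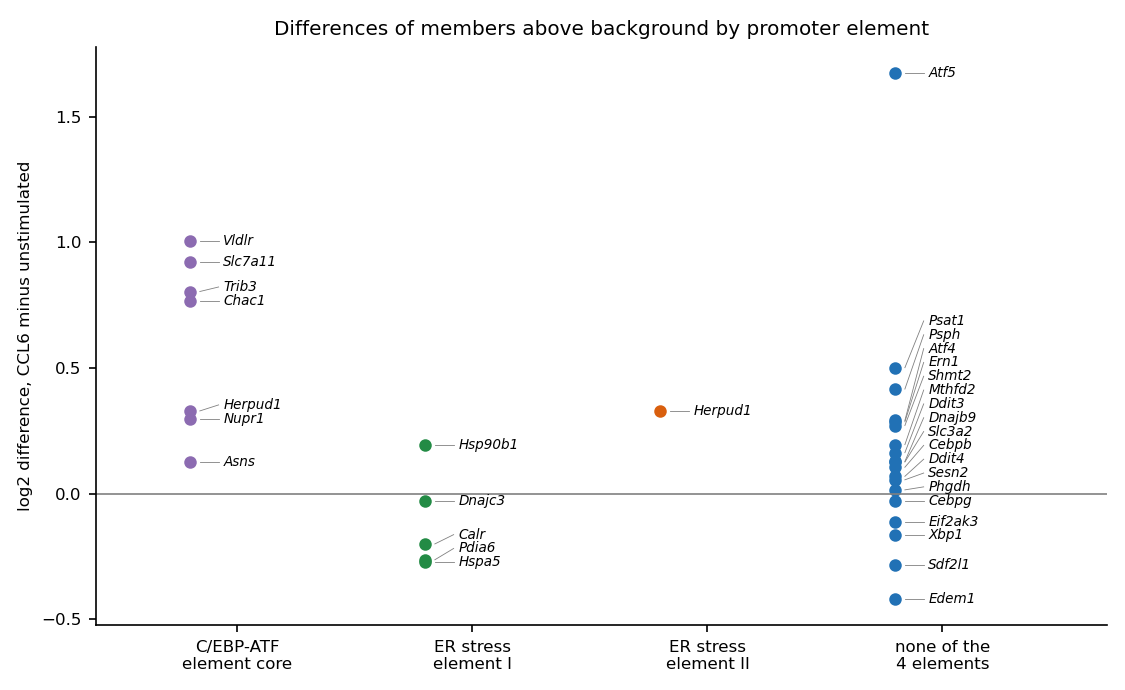
Log2 difference (CCL6 minus unstimulated, vertical axis) of members above background, set in columns by the promoter element their window holds. Points are genes, with Herpud1 in 2 columns. With all arrays used, as plotted, all 7 genes with the C/EBP-ATF core lie above 0 and 4 of 5 with ER stress element I lie below 0. Nupr1 and Asns, which hold the core, did not stay above 0 in every setting with arrays left out.

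Other genes of the same pathways were read from 6 lists that held 100 measured genes, of which 0 passed the test. At an unadjusted p under 0.05, 4 were higher and 2 lower, against 1.28% higher and 1.81% lower over all probe sets. The 2 lower are thus near the share of the whole table. Aminoacyl-tRNA synthetases, which load amino acids on tRNA and include many ATF4 targets, had a higher mean for 15 of 18 genes (median 0.18). The share with a higher mean was 48.5% over all probe sets. The mean deviation of the synthetases overlapped, at -0.238, -0.098 and 0.049 without CCL6 and 0.240, 0.077 and -0.029 with it. Wars, the tryptophan enzyme, differed by 0.81 (SE 0.24, unadjusted p = 0.00766, adjusted p = 0.999), with 11.09, 11.24 and 11.15 unstimulated and 12.13, 12.09 and 11.70 after CCL6, without overlap. Lars differed by 0.54, Farsb by 0.41 and Hars by -0.45. Further ATF4-linked amino acid and stress genes had a higher mean for 17 of 24 (median 0.11). Their mean deviation was -0.222, -0.225 and 0.248 without CCL6 and 0.295, 0.057 and -0.154 with it. Unstimulated replicate 3 thus lay among the CCL6 arrays and CCL6 replicate 3 among the unstimulated ones. Of these genes Aldh1l2, a mitochondrial folate enzyme, differed by 0.77 (SE 0.31, unadjusted p = 0.0363). The amino acid carriers Slc1a5 and Slc6a9 differed by 0.51 and 0.39. Tars2, the mitochondrial threonine synthetase, differed by -0.46. The eIF2 kinases and eIF2 machinery split 7 to 7 with a median of -0.02, with Oma1 at 0.79 (SE 0.62), Eif2s2 at 0.31, Eif2b1 at -0.24 and Eif2ak4, which encodes GCN2, at -0.31.

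In 3 further lists of ER genes 28 of 44 had a lower mean. Of 17 further folding genes 13 were lower, with a median of -0.08. Yet 2 oxidoreductase genes there were higher at an unadjusted p under 0.05, Ero1a by 0.69 (SE 0.22, unadjusted p = 0.0124) and Txndc11 by 1.46 (SE 0.50, unadjusted p = 0.0172). Ero1a encodes the oxidase that recharges disulfide isomerases, and its values of 12.84, 13.05 and 12.87 unstimulated and 13.63, 13.68 and 13.53 after CCL6 were well apart. Txndc11 read 8.181, 9.641 and 7.525 unstimulated and 9.74, 10.341 and 9.655 after CCL6. Its groups were only just apart, at unstimulated replicate 2 and CCL6 replicate 3. Ero1b differed by 0.29 and Pdia3 by -0.26. Of 17 degradation and translocation genes 12 were lower, with a median of -0.11.

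The translocon channel genes Sec61b and Sec61g differed by -0.71 (SE 0.28, unadjusted p = 0.0319) and -0.67 (SE 0.27, unadjusted p = 0.0366), both without overlap. Sec61b read 9.88, 9.77 and 9.41 unstimulated and 9.41, 8.84 and 8.67 after CCL6. There CCL6 replicate 1 and unstimulated replicate 3 differed only in the third decimal. Selenos differed by -0.37, and Derl3 had means of 5.37 and 4.72, the second not above background. The ER stress regulators had 7 higher and 3 lower with a median of 0.08, among them Creb3l2 at 0.16, Mbtps1 at -0.27, Atf6b at -0.31 and Creb3l1 with means of 4.66 and 5.26. Taking the ER folding and degradation genes of both sources, 31 of 43 were lower after CCL6 and 27.9% were higher, against 48.5% of all probe sets, with a median of -0.10. Groups did not overlap in 8 that were lower (18.6%, against 4.41% of all probe sets) and 3 that were higher (6.98%, against 3.77%). The 8 include Sec61b, with its narrow gap, and Derl3, and the 3 include Txndc11, also with a narrow gap. This pool was not among the planned summaries, and it counts Calr, Pdia6 and Herpud1 again. It leaves out the ER stress regulators, of which 7 were higher and 3 lower, and it was not repeated with arrays left out. Within it the further folding genes had a mean deviation of 0.025 after CCL6 and -0.025 without it, although 13 of 17 were lower. None of the pooled genes had an adjusted p under 0.05, and a p that misses the threshold does not show that levels were equal.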

How the data were processed

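Total RNA of 6 ID8 cultures was hybridised to Clariom S mouse arrays. The deposited log2 values were made by the authors with RMA, named in the submitters' processing notes, which corrects background, normalizes arrays to a common distribution and summarises each probe set. For RMA the software, version, filters and genome build are not given in the sources used here. Values ran from 1.93 to 19.19, from which a log base of 2 was inferred. A shift shared by most transcripts would not show after RMA. The number of arrays limits the precision.

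Names of probe sets came from the annotation of the platform (19572 with 1 symbol, 2634 unnamed), and 19572 matched RefSeq GRCm38.p6 by gene identifier with 0 symbols changed. The background level rests on 1452 olfactory, vomeronasal and taste receptor probe sets, and 12547 probe sets lay above it. A two-sided moderated test in limma 3.58.1 (R 4.3.3, functions lmFit and eBayes) compared the groups, and p-values were adjusted by Benjamini-Hochberg over 22206 probe sets, with 0.05 as the threshold. The methods name tests between groups in general, of which the methods' t-test was run as an alternative, and none for the arrays in particular. P-values measure the spread between these cultures.

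Members and lists were chosen with earlier results of these data known. Every array value was given for 11 genes fixed by name (Atf4, Ddit3, Trib3, Chac1, Asns, Slc7a11, Vldlr, Xbp1, Hspa5, Hsp90b1 and Herpud1) and for members with an unadjusted p under 0.05 or without overlap. From each wider list the up to 4 genes of smallest unadjusted p, among those above background, were named. Promoter windows were searched in Python 3.11.15. The scripts were tested on simulated data. Alternatives were 3 further normalizations, a background filter, another variance model, array weights, blocks, arrays left out, an adjusted threshold of 0.1 and averaging of probe sets. A group mean without Stc2 was added after seeing the data, and the pool of ER folding and degradation genes was not planned.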

Additional observations from a re-analysis of the deposited data

How the results depend on the processing

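No member had an adjusted p under 0.05 in any of 15 alternative fits, and the median of all probe sets moved by at most 0.022. Over the alternatives the difference changed sign at least once in 17 of 36 member probe sets (44 values, with 494 that kept it), and in 3 of the 15 probe sets of genes given in full (6 values, with 219 that kept it), namely Asns and both of Ddit3. The first Ddit3 probe set was -0.11 without both arrays numbered 3 (0.29 with all arrays), the second as low as -0.236 without CCL6 replicate 3 (0.04), and Asns was -0.021 without CCL6 replicate 1 and up to 0.22 without CCL6 replicate 3 (0.12). Members at an unadjusted p under 0.05 numbered 7 without both arrays numbered 3, and 2 to 5 with any 1 array left out (2 without CCL6 replicate 2), against 4. Shares over all probe sets are not given for these settings, so the counts cannot be read as a result about the members. In limma without both arrays numbered 3, the smallest adjusted p of the whole table was 0.102, against 0.999 with all arrays. Without both arrays numbered 3, treatment cannot be told apart from the first component. The amino acid median ran from 0.005 without CCL6 replicate 1 to 0.455 without CCL6 replicate 3, against 0.213. The methods' t-test called 1 probe set of the whole table, against 0. In each case the cause was not tested. Arrays with the same number did not deviate together (correlations of -0.083, -0.232 and -0.661 for replicates 1, 2 and 3), and the main fit used no pairing. These correlations cannot settle whether cultures were paired. There were only 3 arrays per group, and both arrays numbered 3 lay apart from their groups on the first component. With the replicate number as a block 26 member probe sets were higher, 4 had an unadjusted p under 0.05, 0 were called, the amino acid median was 0.213 and the chaperone median -0.20. The 2 array sets used as a block came from the data and are no batch named in the labels.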
